A study of Mus musculus with 10 samples.

Results

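The 980 probes described here are those of the Agilent mouse expression array whose listed target is an interval of chromosome 6 rather than a transcript. They were chosen by that name alone, as the non-control probes listed under an interval of chromosome 6 in mm9, the genome build named by the array, and they make up 980 of 55681 probes on each array. Another 15214 probes are listed under intervals of other chromosomes. The 10 arrays measured mouse embryonic stem (ES) cells of the E14 line, of 129/Ola background, cultured with Lif to hold them in the undifferentiated state. In the *Hottip* gRNA group (4 arrays) and the *Hoxa13* gRNA group (3 arrays), 5 plasmids for guide RNAs (gRNAs) to the promoter of the named gene were delivered with a plasmid for dCas9-VP160, in which a Cas9 that cannot cut DNA carries VP16-derived activation domains. The control group (3 arrays) received non-targeting gRNAs. Its dCas9 is described as the protein alone, so the control differed from the other groups in the gRNAs and, by that description, in VP160 as well. All groups were under puromycin at 2 μg/ml for 24 h, and RNA was taken from whole cultures at 48 h, where fewer cells making an RNA and less of it per cell cannot be told apart.

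Long intergenic non-coding RNAs (lincRNAs) are transcripts made from the stretches between protein-coding genes. They are often low in abundance and restricted to few cell types, and some act on the genes beside them. The Hoxa genes, which encode transcription factors that pattern the body axis and limbs, lie in 1 cluster on mouse chromosome 6. *Hoxa13* is at its 5′ end, and *Hottip*, a lincRNA that recruits Wdr5 and Mll complexes to 5′ Hoxa genes, starts beside *Hoxa13* and is transcribed away from it. In the RefSeq gene order of GRCm38.p6 the lncRNA gene *Halr1* lies at the other end, beside *Skap2*. No annotation of mm9 was used here, so the intervals were matched to no named gene or transcript, and whether they are intergenic was not checked.

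The *Hottip* guide RNAs are shown because they set where the activator was brought, which is also on chromosome 6. All 5 matched the RefSeq promoter of *Hottip* in GRCm38.p6 and each was followed there by a protospacer adjacent motif (PAM) of the form NGG, shown in capitals. These positions are in another build than the intervals and were not compared with them. The *Hottip* gRNAs matched chr6:52262547-52262665, from 228 to 110 bases before the start of *Hottip*, sg2 on the plus strand and the other 4 on the minus strand. Several of them overlap one another, so they are not separate target sites.
mHottip_pro_sg1: gcagtaagaaggtaaactcgGGG
mHottip_pro_sg2: tctcctgactttagcggtccTGG
mHottip_pro_sg3: tacccaggaccgctaaagtcAGG
mHottip_pro_sg4: ggatcagggaaggttttattGGG
mHottip_pro_sg5: gggatcagggaaggttttatTGG

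A level is log2 of the background-subtracted spot intensity minus the 75th percentile of the same array on that scale. Well above background is the mark that Feature Extraction, the scanner software, gives to a spot, and a spot marked as an outlier has no level here. Levels of different probes are not comparable with each other. No probe was matched to *Hottip*. At the brighter *Hoxa13* probe the *Hottip* gRNA arrays read 3.60, 4.16, 3.88 and 3.17, the arrays labelled *Hoxa13* gRNAs −3.68, −4.80 and −4.31, and the control arrays −5.84, −5.00 and −3.46. It was well above background on the 4 *Hottip* gRNA arrays alone, with a signal at least 144-fold over that of the control (adjusted p = 0.000111 from limma). Between the arrays labelled *Hoxa13* gRNAs and the control the log2 difference was 0.50 with a standard error of 0.59, so that this probe does not set those groups apart on this scale. In the log2 values deposited by the authors that probe ranged from 6.39 to 7.16 on the *Hoxa13* gRNA arrays and from 5.41 to 5.88 on the control arrays. A less strict mark of the scanner software, for signal significantly over background, was given to it on 2 *Hoxa13* gRNA arrays and on 0 control arrays. All 8 ES cell markers were well above background on all 10 arrays and none was called in any comparison, whereas *Cdx2*, a trophoblast marker, was at least 13.3-fold higher after *Hottip* gRNAs (adjusted p = 0.00105) and *Acta2*, a fibroblast marker, was 2.50 higher on the log2 scale after *Hoxa13* gRNAs (adjusted p = 0.0275). Summed over the 4 of 6 trophoblast markers with a level on all 10 arrays, the level ran from 2.25 to 2.67 in the control. After *Hottip* gRNAs it ran from 3.27 to 3.72 and after *Hoxa13* gRNAs from 2.74 to 4.35, so that the control sums lay below both pools. *Krt18*, the brightest of the 4, makes up most of this sum and was not called. Its log2 differences from the control were 0.84 and 0.92 (adjusted p = 0.715 and 0.470 from limma). Summed over 5 of 6 fibroblast markers the level ran from −0.61 to 1.41 in the control, from −0.13 to 2.83 after *Hottip* gRNAs and from 0.77 to 1.32 after *Hoxa13* gRNAs. Of the 6 markers in each list, only *Elf5* was well above background on no array, and the part of other cells in the values below was not tested. *Hoxa13* gRNA replicates 1 and 2 were on a slide of their own, apart from the other 8 arrays.

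The probes cover 197 intervals between 3.28 and 149 Mb of chromosome 6, from 100 to 187001 bases long (median 6569). The interval names carry a strand suffix, F (464 probes) or R (511 probes), except for 1 interval with 5 probes. A total of 64 intervals have probes on both strands, which gives 261 interval names with 1 to 10 probes each (median 3). Names also overlap in position, with 144 overlapping pairs of different intervals that involve 155 names, so that neighbouring probes can share a target.

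Most of these probes gave no signal above background in ES cells. Of the 980, 552 were well above background on no array, 160 on at least 3 arrays (16.3%) and 57 on all 10. The share on at least 3 arrays was 18.3% for the interval probes of other chromosomes and 50.4% for the remaining probes of the array. By array, 11.4% to 16.8% of the chromosome 6 interval probes were well above background after *Hottip* gRNAs, 13.7% to 20.1% after *Hoxa13* gRNAs and 13.2% to 16.2% in the control, and these ranges overlap. On *Hottip* gRNA replicates 3 and 4, 729 of 978 and 666 of 940 of the probes with a level shared the lowest value of the array, −4.54 and −5.01. Levels at that floor have no order, and a fall on these arrays is limited by it.

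Signal on all 10 arrays came from few intervals. The 57 probes well above background on all 10 arrays belong to 35 interval names, and 11 names have at least 2 of them. Names with such a probe had a median length of 21526 bases, against 10601 for the others. Strand can be compared only in the 64 intervals with probes on both strands, and not in the other 133. Among the 64, such probes were found on F alone in 9, on R alone in 9, on both in 1 and on neither in 45. An interval with a single such probe can show it on 1 strand only, and a preference for 1 strand was not tested. At chr6:54591416-54597566 all 5 F probes and none of 8 R probes were well above background on all 10 arrays. At chr6:11996975-12037300 this was 4 of 5 F probes and none of 5 R probes, at chr6:112552041-112560067 3 of 10 F and none of 10 R, and at chr6:4841700-4847400 both R probes and none of 5 F. The interval where both strands had one was chr6:145647711-145756861, with 1 of 8 on each. On at least 3 arrays more intervals had probes above background on both strands. Among them were chr6:54591416-54597566, with 5 F and 1 R, and chr6:116092274-116144199, with 3 of 5 F and 3 of 10 R.

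Within 1 Mb of the Hoxa cluster, between 51.1 and 53.25 Mb in mm9, there are 26 probes under 5 interval names at 4 positions. The bounds of the cluster were rounded positions set in advance and not taken from an annotation, so all distances to it are approximate. All lie on the side of the cluster away from *Hoxa13*. None lies within the cluster, and beyond *Hoxa13* and *Hottip* the nearest interval starts at 53808521, which is 1.56 Mb from the cluster. Among the probes used here none of these intervals therefore lies at the *Hoxa13* end of the cluster, where *Hottip* starts.

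The interval nearest to the cluster, chr6:52046805-52072744, ends 27.3 kb from it and was the one with steady signal. Of its 6 F probes, 5 were well above background on all 10 arrays, and the sixth on 9. Of its 9 R probes, 6 were so on no array, 2 on a single array and 1 on 6 arrays. Probe A_30_P01019947 (F) read 3.62, 3.77 and 4.25 in the control, 4.28, 4.30 and 4.27 after *Hottip* gRNAs with 1 outlier spot, and 4.38, 4.49 and 4.53 after *Hoxa13* gRNAs. Its 3 groups did not overlap, but the difference between *Hottip* gRNAs and control was 0.40 with a standard error of 0.35 (adjusted p = 0.954), and that between *Hoxa13* gRNAs and control 0.59 with the same standard error (adjusted p = 0.505). A_30_P01026100 (F) read 1.58, 1.93 and 1.54 in the control, 0.46, 0.62, 0.63 and 1.33 after *Hottip* gRNAs and 2.92, 1.54 and 0.89 after *Hoxa13* gRNAs. The *Hottip* gRNA arrays were all below the control arrays, a difference of −0.92 (standard error 0.48, adjusted p = 0.726), while the *Hoxa13* gRNA arrays spanned both. A_30_P01029896 (F) read 3.08, 3.00 and 4.81 in the control, 3.34, 3.40, 3.59 and 2.89 after *Hottip* gRNAs and 4.11, 3.86 and 3.75 after *Hoxa13* gRNAs, with overlap between both pools and the control.

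Probe A_30_P01018773 (F) had the lowest unadjusted p of the F probes in the comparison of *Hottip* gRNAs with the control. It read −0.53, −0.13 and −0.40 in the control, −2.04, −1.65, −1.51 and −0.36 after *Hottip* gRNAs, and −0.56 and −0.86 after *Hoxa13* gRNAs with 1 outlier spot. Replicate 4 of the *Hottip* gRNAs lay within the control range, and the difference of −1.04 (standard error 0.44, unadjusted p = 0.0390) had an adjusted p of 0.568 from limma and p = 0.114 in a two-sided exact permutation test, whose smallest possible value for 4 arrays against 3 is 0.0286. A_30_P01020764 (F) read 2.10, 2.07 and 1.90 in the control, 1.34, 1.29 and 1.31 after *Hottip* gRNAs with 1 outlier spot and 2.48, 1.87 and 1.12 after *Hoxa13* gRNAs. The *Hottip* gRNA arrays were below the control arrays without overlap, a difference of −0.71 with a standard error of 0.41 (adjusted p = 0.800). A_30_P01024551 (F) ranged from −0.17 to 1.61 in the control, from 0.41 to 0.75 after *Hottip* gRNAs and from −0.01 to 0.41 after *Hoxa13* gRNAs, all within the control range. Over the 6 F probes the differences ran from −1.04 to 0.40 (median −0.52, 1 above 0) after *Hottip* gRNAs and from −0.49 to 0.59 (median −0.05, 3 above 0) after *Hoxa13* gRNAs, beside medians of −0.03 and 0.19 over all probes tested.

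At chr6:52032838-52033444, 66.6 kb from the cluster and listed without a strand, all 5 probes were well above background on at least 3 arrays and 1 on all 10. That probe, A_30_P01018476, read −0.20 and −1.00 in the control with 1 outlier spot, −1.17, −1.16, −0.79 and −1.18 after *Hottip* gRNAs and −0.83, −0.17 and −0.70 after *Hoxa13* gRNAs, so that the groups overlapped. All 5 probes had lower means after *Hottip* gRNAs than in the control, by −1.18 to −0.19 (median −0.75), with unadjusted p values from 0.0775 to 0.702. The lowest was that of A_30_P01031359, which read −1.55, −2.18 and −2.72 in the control and −3.31, −4.15, −2.71 and −3.16 after *Hottip* gRNAs and was well above background on 2 control arrays and no *Hottip* gRNA array, at least 1.28-fold higher in the control. The other 2, A_30_P01019665 and A_30_P01031484, differed by −0.78 and −0.19 with overlap between the groups. After *Hoxa13* gRNAs the differences were −1.00 to 0.19 (median −0.08). Between the pools the lowest unadjusted p was that of A_30_P01028792. It read −3.03, −2.08, −1.83 and −2.51 after *Hottip* gRNAs and −1.02, −1.41 and −1.82 after *Hoxa13* gRNAs, a difference of −0.94 (standard error 0.40, unadjusted p = 0.0369, adjusted p = 0.392).

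Farther out, chr6:51794614-51795280 (R, 305 kb from the cluster) has 3 probes. A_30_P01018484 read −3.65, −2.46 and −3.29 in the control, none well above background, and 0.63, −1.50 and −0.60 after *Hottip* gRNAs with 1 outlier spot, all well above background. All *Hottip* gRNA values were above all control values, which gives at least a 6.25-fold higher signal (log2 difference 2.64, standard error 0.75, unadjusted p = 0.00548, adjusted p = 0.248). A_30_P01028380 read −2.70, −2.02 and −2.60 in the control and −0.65 and −1.08 after *Hottip* gRNAs with 2 outlier spots. The third probe, A_30_P01028614, was well above background on no array and differed by 0.34. The spots of the first 2 probes lie near the edge of the array, in rows 367 and 372 of 384. The median level of the spots around them, in a square of 11 by 11 spots, was itself higher in the *Hottip* gRNA group than in the control, by 2.57 and 2.76. With that local median subtracted from each spot the differences were 0.13 and −0.98. The remaining interval, chr6:51542802-51544588 (R, 555 kb away), has 3 probes, of which A_30_P01025255 was well above background on 9 arrays. Its values ran from −2.79 to −0.37 in the control, from −3.18 to −1.47 after *Hottip* gRNAs and from −1.90 to 0.02 after *Hoxa13* gRNAs, and the differences from the control were −0.18 (standard error 0.68) and 1.02 (standard error 0.73). The other 2 were well above background on 1 array and on none.

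In all, 15 of the 26 probes passed the filter of 3 arrays well above background. The comparisons follow in the order *Hottip* gRNAs against control, *Hoxa13* gRNAs against control and *Hottip* against *Hoxa13* gRNAs. None of the 15 was called at an adjusted p under 0.05 in any of the 3 comparisons. Only 0.718%, 0.175% and 0.381% of all probes were called, so 15 probes without a call say little. An unadjusted p under 0.05 was found for 3, 0 and 3 of the 15, beside 8.05%, 11% and 11.9% of all probes. Groups did not overlap for 5, 2 and 5 of the 15, beside 13.0%, 23.3% and 17.2% of all probes. Two-sided exact permutation tests gave p = 0.1 for A_30_P01018484, the smallest value possible with its outlier spot left out. Their median difference was −0.32, 0.03 and −0.51 in the 3 comparisons, beside −0.03, 0.19 and −0.26 over all probes tested. With the local median subtracted they were −0.27, −0.23 and 0.11, beside 0.06, 0.08 and −0.03 over all probes, so that the sign turned for *Hoxa13* gRNAs against control and between the pools. Among genes of the cluster, *Hoxa13*, *Hoxa10* and *Hoxa11os*, an antisense RNA of *Hoxa11*, were called higher after *Hottip* gRNAs, by at least 144-fold, 4.99-fold and 8.98-fold. None of the 6 tested genes that flank the cluster was called, among them *Skap2*, the first coding gene on the side where the 26 probes lie, with a difference of 0.02. *Hibadh* differed most, by −2.41 after *Hottip* gRNAs (adjusted p = 0.501 from limma) and by −3.22 between the pools (adjusted p = 0.237). *Evx1*, listed among the non-Hox genes of the cluster, was well above background on 2 *Hottip* gRNA arrays alone and so was not tested. Its signal there was at least 3.65-fold over the control.

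Over the whole chromosome 1 of 160 tested probes was called for *Hottip* gRNAs against control and 1 of 160 for *Hoxa13* gRNAs against control, both times the same probe and both times lower. Over all probes of the array 0.718% (164 of 22830) and 0.175% (40 of 22830) were called, and the share among the interval probes of chromosome 6, 0.625%, was near the first of these and rests on a single probe in the second. Between the pools 0 of 160 were called by limma, beside 0.381% of all probes. An unadjusted p under 0.05 was found for 9 of 160 probes (5.62%) after *Hottip* gRNAs, with 8.05% over all probes, for 19 (11.9%) after *Hoxa13* gRNAs, with 11% over all probes, and for 24 (15.0%) between the pools, with 11.9% over all probes. Groups did not overlap for 15, 31 and 28 of 160 probes (9.38%, 19.4% and 17.5%), where the shares over all probes were 13.0%, 23.3% and 17.2%. The shares among the interval probes of chromosome 6 thus lay on either side of those over all probes. The 2 comparisons with the control share its 3 arrays.

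The probe called in both comparisons was A_30_P01021271, for the R strand of chr6:57695178-57695277, an interval of 100 bases with no other probe. It read −0.88 and −0.08 in the control, where the spot of replicate 3 was an outlier, −3.91, −4.54 and −5.01 after *Hottip* gRNAs, where that of replicate 1 was, and −4.94, −3.96 and −4.44 after *Hoxa13* gRNAs. The 2 control values lay above all others, and none of the levels after *Hottip* or *Hoxa13* gRNAs was well above background, although the outlier spot of *Hottip* gRNA replicate 1 carried that mark. The difference was −4.01 after *Hottip* gRNAs (standard error 0.53, adjusted p = 0.0109) and −3.97 after *Hoxa13* gRNAs (standard error 0.53, adjusted p = 0.0336), and in the latter the control was at least 6.62-fold higher. Two-sided exact permutation tests gave p = 0.1 in each, the smallest value possible with 2 arrays against 3. The values of −4.54 and −5.01 are the floors of those arrays. Its spot lies in row 344, where the surrounding spots were also lower than in the control, by 1.24 and 0.94, and with the local median subtracted the differences were −2.53 (adjusted p = 0.0585) and −2.72 (adjusted p = 0.0635), neither called. Without control replicate 2, which leaves the 1 control value of −0.88, assumed to vary like the other groups, it was called in neither comparison (−3.61 with adjusted p = 0.130, and −3.57 with adjusted p = 0.341), and without *Hottip* gRNA replicate 3 the first difference was −3.98 (adjusted p = 0.0524). With the slide of 2 arrays left out, so that *Hoxa13* gRNA replicate 3 alone stands for its group, the second was −3.96 (adjusted p = 0.193).

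Differences of either sign were spread along the chromosome. In 6 blocks of 25 Mb the median difference ran from −0.21 to 0.18 after *Hottip* gRNAs, from 0.09 to 0.77 after *Hoxa13* gRNAs and from −0.66 to −0.05 between the pools. The block from 50 to 75 Mb, which holds the Hoxa cluster, had medians of −0.13, 0.09 and −0.39 over its 34 tested probes. The highest median after *Hoxa13* gRNAs, 0.77, was in the block from 25 to 50 Mb with 16 tested probes.

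Large differences went with the place of the spot on the array. Of the 160 tested probes, 43 have their spot beyond row 340 of the array, a limit set after the values were seen. Differences over 2 in size were found for 8 of these 43 and for 2 of the other 117 after *Hottip* gRNAs, for 9 and 3 after *Hoxa13* gRNAs, and for 9 and 1 between the pools. Over all tested probes of the array they were found for 580 of 3764 and 218 of 19066 after *Hottip* gRNAs. After *Hoxa13* gRNAs these counts were 533 of 3764 and 142 of 19066, and between the pools 699 of 3758 and 178 of 19067. In the first comparison the median standard error of the chromosome 6 interval probes was 1.06 beyond row 340 and 0.47 elsewhere. Over all tested probes it was 0.79 and 0.42. Probes in these rows also passed the filter more often, 36.8% against 13.6% of the chromosome 6 interval probes and 57.3% against 38.8% of all probes, and more of their spots were outliers, 8.29% against 1.30%. Among the 117 tested probes in the other rows, none was called in any comparison. Over all tested probes in those rows 121 of 19066, 19 of 19066 and 70 of 19067 were called, so 117 probes without a call say little. The 3 probes near the Hoxa cluster with a difference over 2 in any comparison (A_30_P01018484, A_30_P01020505 and A_30_P01028380) all lie in the outer rows. A_30_P01028380 passed 2 only between the pools, at 2.69 (standard error 0.87, adjusted p = 0.303 from limma). With the local median subtracted that difference was 0.19. From the control it differed by 1.58 after *Hottip* gRNAs and by −1.11 after *Hoxa13* gRNAs. A_30_P01020505, an R probe of chr6:52046805-52072744 in row 366, had a difference of 4.06 (standard error 1.43, adjusted p = 0.492) that rests on 1 *Hottip* gRNA array, since 3 of its spots there were outliers. Here the surrounding spots differed by 0.97, and with the local median subtracted the difference was 3.07.

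The highest differences after *Hoxa13* gRNAs were from these rows too. A_30_P01025946, for the F strand of chr6:67016874-67030651 in row 379, read −1.90, −1.27 and −1.08 in the control, −0.44, 0.70, −4.54 and −1.85 after *Hottip* gRNAs and 6.30 on 1 *Hoxa13* gRNA array, with outlier spots on the other two. The difference of 7.71 rests on that array (standard error 1.61, adjusted p = 0.189), at least 210-fold over a control that was nowhere well above background, and the spots around it were 5.75 higher as well. It was not called here, but it was called with median centring (adjusted p = 0.00773), normexp (0.00389), only the groups compared (0.0453) and without *Hottip* gRNA replicate 3 (0.0356). Between the pools, at −7.83 (adjusted p = 0.0979), it was called in 5 alternatives (adjusted p from 0.00617 to 0.0497). A_30_P01018029, for the R strand of chr6:54592523-54593344 in row 374, read −2.07, −1.64 and −0.92 in the control, −0.64, 7.13, −4.01 and −1.52 after *Hottip* gRNAs and 4.50 and 7.38 after *Hoxa13* gRNAs. Its difference of 7.48 had a standard error of 2.53 (adjusted p = 0.447), at least 179-fold over a control that was nowhere well above background, with 1 *Hottip* gRNA array at 7.13, and the surrounding spots were 4.23 higher. In the direction of a fall, A_30_P01027208, for the R strand of chr6:31786292-31786599 in row 347, read −0.66 and 1.86 in the control and −4.21, −2.07 and −4.04 after *Hoxa13* gRNAs, none of the latter well above background. The control was at least 10.4-fold higher (adjusted p = 0.447), where the surrounding spots were 2.59 lower in the *Hoxa13* gRNA group. Just short of these rows, A_30_P01031183, for the R strand of chr6:115468025-115489250 in row 338, had a difference of −4.76 after *Hottip* gRNAs, the lowest of the 160 (standard error 1.57, adjusted p = 0.391), with 1 control array at 2.26 and surrounding spots 2.77 lower.

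A_30_P01029680, for the R strand of chr6:108556270-108573161, read −1.47, −1.77 and −1.01 in the control, −0.16, 0.03, −0.13 and −0.35 after *Hottip* gRNAs and −1.00, −1.50 and −0.85 after *Hoxa13* gRNAs. All 4 *Hottip* gRNA arrays were above all 6 others. The differences were 1.26 from the control (standard error 0.34, unadjusted p = 0.00336, adjusted p = 0.192) and 0.97 from *Hoxa13* gRNAs (standard error 0.34, adjusted p = 0.320), each with p = 0.0286 in a two-sided exact permutation test, the smallest it allows. A_30_P01028164 of the same interval read −0.63, −1.18 and −1.40, in the control, −0.95, −0.16, −0.17 and 0.27 after *Hottip* gRNAs and −1.30 and −1.74 after *Hoxa13* gRNAs, a difference of 1.27 between the pools (standard error 0.45, adjusted p = 0.335), with *Hottip* gRNA replicate 1 within the control range. All 5 tested R probes of the interval, of 9, had higher means after *Hottip* gRNAs than in either other group, by 0.11 to 1.26 against the control and 0.12 to 1.27 against *Hoxa13* gRNAs, while none of its 10 F probes was well above background on 3 arrays.

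At chr6:116092274-116144199 the 3 tested F probes had lower means after *Hottip* than after *Hoxa13* gRNAs, with differences of −1.03, −1.43 and −1.51 (unadjusted p = 0.0439, 0.0128 and 0.0246), and none was called (adjusted p from 0.300 to 0.408). Against the control the same 3 differed by 0.87 to 1.57 after *Hoxa13* gRNAs and by −0.55 to 0.06 after *Hottip* gRNAs. Within it lies chr6:116123643-116124550, whose 3 F probes (A_30_P01026611, A_30_P01021866 and A_30_P01026091) were named for their bright spots, among the 5 brightest of the 980. A_30_P01026611 read 4.72, 5.09 and 7.08 in the control, 6.35, 6.81, 5.33 and 4.66 after *Hottip* gRNAs and 6.63, 5.88 and 6.72 after *Hoxa13* gRNAs, with overlap between all groups and differences of 0.16 (standard error 0.66) and 0.78 (standard error 0.70) from the control. A_30_P01021866 and A_30_P01026091 differed from the control by −0.09 and 0.28 after *Hottip* gRNAs and by 0.58 and 0.99 after *Hoxa13* gRNAs, and neither was called. The first was saturated on 2 control arrays, 1 *Hottip* gRNA array and 1 *Hoxa13* gRNA array, and A_30_P01026611 on 1 *Hoxa13* gRNA array, which limits what these differences can show. Another of the 5, A_30_P01032016, for the F strand of chr6:83368261-83407280, ranged from 3.64 to 4.26 in the control, from 3.20 to 4.27 after *Hottip* gRNAs and from 2.67 to 5.75 after *Hoxa13* gRNAs.

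Among other probes with a low unadjusted p, A_30_P01026063, for the R strand of chr6:121037952-121038370, read −1.22, −1.95, −1.60 and −1.63 after *Hottip* gRNAs and 0.19, −0.38 and −0.62 after *Hoxa13* gRNAs. The pools did not overlap, with a difference of −1.33 (standard error 0.35, adjusted p = 0.176, p = 0.0286 in an exact permutation test), and the control, at −1.23, −0.93 and −0.74, overlapped the *Hottip* gRNA arrays at their upper end. A_30_P01018617, for the R strand of chr6:86425510-86450160, read −0.18, −0.35 and −0.22 in the control and 1.75 and 2.12 after *Hoxa13* gRNAs, a difference of 2.19 (standard error 0.44, unadjusted p = 0.000770, adjusted p = 0.161). Both of these *Hoxa13* gRNA values came from the slide without control arrays, since the spot of replicate 3 was an outlier, so that slide and pool cannot be told apart there. The spots around this probe were also 1.22 higher in the *Hoxa13* gRNA group than in the control. With the local median subtracted the difference was 1.08 (adjusted p = 0.469 from limma). A_30_P01020699 and A_30_P01032325, for the R strand of chr6:133054025-133069850, were well above background on all control arrays and on no *Hoxa13* gRNA array, with a signal at least 2.40-fold and 1.74-fold higher in the control (adjusted p = 0.447 and 0.456). The first read −1.73, −2.06 and −0.90 in the control and −3.16, −2.93 and −2.43 after *Hoxa13* gRNAs. One further tested probe of that interval, A_30_P01021464, differed by −0.18.

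The remaining probes named for a low unadjusted p came from separate intervals. A_30_P01030787, for the R strand of chr6:126768864-126769326 in row 356, read 0.23, 0.79 and −0.45 in the control, −0.28, 0.45, −0.93 and −1.26 after *Hottip* gRNAs and 0.90, 2.12 and 0.94 after *Hoxa13* gRNAs. The *Hoxa13* gRNA arrays were above all others, with a difference of −1.82 between the pools (standard error 0.52, adjusted p = 0.219), where the surrounding spots differed by 0.09. A_30_P01020771, for the R strand of chr6:86776350-86799379, read 0.18, −0.47 and −0.29 in the control, −0.43, −0.52, 0.01 and −0.30 after *Hottip* gRNAs and −0.53, −1.69 and −3.32 after *Hoxa13* gRNAs. Control and *Hottip* gRNA arrays overlapped, and all *Hoxa13* gRNA arrays were lower, though their own spread was wide (difference from the control −1.66, standard error 0.60, adjusted p = 0.447). A_30_P01030135, for the F strand of chr6:34548561-34612216, read −1.14, −1.56 and −0.49 in the control and was higher on average after both pools, from −0.58 to 0.43 after *Hottip* gRNAs and from −0.30 to 0.47 after *Hoxa13* gRNAs. The differences were 1.01 (standard error 0.41, adjusted p = 0.522) and 1.25 (standard error 0.43, adjusted p = 0.447). A_30_P01021179, for the F strand of chr6:134879009-134880130, read 1.18, 0.72 and 0.36 in the control and 3.30, 1.81 and 1.52 after *Hoxa13* gRNAs, without overlap (difference 1.46, standard error 0.50, adjusted p = 0.447). A_30_P01033408, for the R strand of chr6:122741562-122743423 in row 363, read 3.09, 2.38 and 2.29 in the control and 3.94, 5.05 and 3.72 after *Hoxa13* gRNAs, a difference of 1.65 (standard error 0.49, adjusted p = 0.419) where the surrounding spots were lower by 0.96. After *Hottip* gRNAs, A_30_P01031223 (R, chr6:126766225-126771309) and A_30_P01027533 (F, chr6:125407739-125408857) had lower means than in the control, the first by a difference of −0.96 (adjusted p = 0.564). The second was well above background on no *Hottip* gRNA array, and the control was at least 1.54-fold higher (adjusted p = 0.575). The surrounding spots were lower by 0.79 and 0.84.

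Besides the probes named above, others were well above background throughout one group and nowhere in another. A_30_P01024985 (R, chr6:67155508-67216941) and A_30_P01023265 (F, chr6:116092274-116144199) were so on all *Hoxa13* gRNA arrays and on no *Hottip* gRNA array, with at least a 1.60-fold and 1.83-fold higher signal (adjusted p = 0.422 and 0.357). A_30_P01025331 (F, chr6:125330524-125410249) was so on all *Hottip* gRNA arrays and no *Hoxa13* gRNA array, at least 3.76-fold higher (adjusted p = 0.606). A_30_P01026080 (R, chr6:82608223-82669023) was so on all *Hottip* gRNA arrays and no control array, at least 2.86-fold higher (adjusted p = 0.952), and both of these last lie beyond row 340. A_30_P01020383 (F, chr6:47687025-47728525) was so on all control arrays and no *Hottip* gRNA array, at least 1.30-fold higher (adjusted p = 0.883). None of these differences was called.

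Probes of 1 interval did not always move together. Of 17 interval names with at least 3 tested probes, all probes had the same sign in 5 after *Hottip* gRNAs (2 higher, 3 lower), in 5 after *Hoxa13* gRNAs (4 higher, 1 lower) and in 7 between the pools (1 higher, 6 lower). The range between the highest and the lowest probe of an interval had a median of 0.86, 1.16 and 1.37. The median SD between replicates of the 160 tested probes was 0.56 in the control, 0.56 after *Hottip* gRNAs and 0.73 after *Hoxa13* gRNAs, and for all tested probes of the array it was 0.39, 0.44 and 0.49.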

How the data were processed

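Cy3-labelled RNA was hybridised to 1-colour Agilent arrays. The spot intensity deposited by the authors came from Feature Extraction 11.5.1.1 and is background-subtracted, and spatially detrended except on *Hottip* gRNA replicates 3 and 4. A table of log2 values deposited by the authors has the same quantiles on every array. Its steps are not stated, beyond limma being named in the submitters' processing notes, and it served as an alternative. Groups were taken from the labels, which call the replicates biological. The members and gene lists were chosen with earlier results of these data known. Replicate numbers were not taken to pair arrays. Control and outlier spots were left out, log2 of the processed signal was taken, the 75th percentile of all non-control spots of the array subtracted and spots of a probe averaged (each member has 1 spot). limma 3.58.1 (lmFit, eBayes; R 4.3.3) was fitted over all probes and arrays with a mean per group. P values were adjusted after Benjamini-Hochberg over the tested probes, that is the 22839 with the well-above-background mark on at least 3 arrays, with calls at an adjusted p under 0.05. The test was checked on simulated data. At-least folds set the bright group against the lowest level well above background on each array of the dim group, or the dim probe's own level where higher. Named were all members near the cluster above background on any array, called members, up to 5 per direction by lowest unadjusted p under 0.05, members above background throughout one group and nowhere in another, and the 5 with the highest mean. A few others were named after their values were seen. Alternatives were median centring, quantile normalization, normexp (offset 50, on the median spot signal as the mean signal was not used here), the log2 values of the authors, other filters, slide or replicate as a block, 1 slide only, local median subtraction, only the groups compared, an intensity trend, a minimum log2 difference of 1 and leaving out each array, and, added after seeing the data, a percentile without outlier spots, normexp followed by quantile normalization, the array's row on the slide as a block, and spots beyond row 340 left out. The number of arrays and signal over background limit the precision. No probe sequences or mm9 annotation were used. The *Hoxa13* guide sequences are not reported here.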

Additional observations from a re-analysis of the deposited data

Results flagged for a closer look

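Among the 34 named probes with a level on all 4 *Hottip* gRNA arrays, 3 had 1 array far from the other 3, where the gap to the nearest array, as a share of the whole range, passed the 95% limit of Dixon's test; chance gives about 5% of such groups. A_30_P01025255 (R, chr6:51542802-51544588) was lowest on *Hottip* gRNA replicate 4 at −3.18, with the others from −1.67 to −1.47 (share 0.885). A_30_P01018476 (chr6:52032838-52033444) was highest on replicate 3 at −0.79, with the others from −1.18 to −1.16 (share 0.952). A_30_P01030061 (R, chr6:52046805-52072744) was highest on replicate 1 at −0.85 and well above background there alone, with the others from −5.01 to −4.34 (share 0.839), of which −5.01 is the floor of replicate 4.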

How the results depend on the processing

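No probe within 1 Mb of the Hoxa cluster was called in any comparison under any of the 27 alternatives. For *Hottip* gRNAs against control the count on the chromosome was 1; it became 0 with only probes above background on all 10 arrays, with the array's row on the slide as a block and with rows beyond 340 left out, and ran from 0 to 2 when single arrays were left out (0 without *Hottip* gRNA replicate 3 or control replicate 2, 2 without control replicate 1). For *Hoxa13* gRNAs against control it was 1, became 2 with median centring and 0 without a filter, with only probes above background on all 10 arrays, with the slide as a block, on 1 slide only, with an intensity trend and with rows beyond 340 left out, and ran from 0 to 1 with single arrays left out (0 without any one *Hoxa13* gRNA replicate, *Hottip* gRNA replicate 2 or 4, or control replicate 2). Between the pools it was 0, became 1 with median centring, normexp, an intensity trend, the slide or its row as a block, and 2 with normexp and quantile normalization, and ran from 0 to 1 with single arrays left out (1 without *Hottip* gRNA replicate 2 or 3). A_30_P01021271 kept its call in 20 of 27 alternatives after *Hottip* gRNAs and in 8 of 27 after *Hoxa13* gRNAs, always lower. It was not tested with only probes above background on all 10 arrays or with rows beyond 340 left out. In those alternatives its call could not be kept. The minimum log2 difference of 1 used the main fit again, where its calls, at −4.01 and −3.97, could not be lost. Why the counts of called probes changed was not tested, except that fewer probes are tested under the stricter filter and without the outer rows. After *Hoxa13* gRNAs the count of 1 was A_30_P01025946 in place of A_30_P01021271 with normexp, with only the groups compared and without *Hottip* gRNA replicate 3, and A_30_P01030330 without control replicate 1. With the array's row on the slide as a block it was A_30_P01021144. Between the pools A_30_P01025946 was the probe called with median centring, normexp, an intensity trend and without *Hottip* gRNA replicate 3. With the slide or its row as a block it was A_30_P01021144, and without *Hottip* gRNA replicate 2 it was A_30_P01018029. With the local median subtracted the calls of A_30_P01021271 were lost and other probes were called, and the difference of A_30_P01018316 after *Hoxa13* gRNAs reversed from −2.36 to 0.45; the other 30 single differences kept their sign throughout. The same subtraction turned the median near the cluster between the pools from −0.51 to 0.11 and after *Hoxa13* gRNAs from 0.03 to −0.23, and the latter was also below 0, from −0.32 to −0.01, with median centring, quantile normalization, normexp with or without it, and the authors' values. Median centring moved the median of all tested probes from −0.03 to 0.22 after *Hottip* gRNAs.

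With the replicate number as a block, 0 probes were called in each comparison, where the main counts were 1, 1 and 0; A_30_P01021271 had −3.94 (adjusted p = 0.169) and −3.95 (adjusted p = 0.155). Deviations of same-numbered arrays from their group means correlated between −0.31 and 0.08. This cannot decide whether the numbers pair the samples, because the deviations are taken from means of few arrays and also went with the row of the slide. Deviations of *Hottip* gRNA and control arrays differed by the row of the slide. In the same row they correlated from −0.11 (*Hottip* gRNA replicate 3, control replicate 2) to 0.42 (*Hottip* gRNA replicate 3, control replicate 1). In different rows they correlated from −0.42 to −0.07. The main fit left this row out.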
